A study of Homo sapiens with 18 samples.

Results

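The subject of this report is how far the transcriptional response to a TLR9 ligand in HG3 cells differed from the response in MEC2 and PCL12 cells. All are Epstein-Barr virus positive B-cell lines established from chronic lymphocytic leukemia (CLL), a leukemia of mature B cells. HG3 and PCL12 carry unmutated and MEC2 mutated immunoglobulin heavy chain genes. The lines were purchased, and the study's methods name no genetic change made to them. The stimulated cells received ODN-2006, an unmethylated CpG oligonucleotide specific for human TLR9, at 2.5 μg/ml for 4 h, and the controls were left unstimulated. RNA-seq libraries were made from 3 stimulated and 3 unstimulated cultures of each line, 18 libraries in all, and each replicate series held 1 stimulated and 1 unstimulated sample of a line. The sources used here do not say how far apart the replicate cultures were grown, so the p-values measure the spread between these samples, which may be technical.

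The quantity described is a contrast, the log2 CpG effect in HG3 minus the mean of the log2 CpG effects in MEC2 and PCL12, with the replicate pairs of each line as a block. A contrast of 0 means the same effect in HG3 as in the average of the other lines, and a negative contrast means a smaller rise or a larger fall in HG3. It was fitted with edgeR's quasi-likelihood test for the 13984 gene symbols, of 56609 in the table, that had a mean of 1 CPM (counts scaled to the library total) or more over the 18 libraries. At that threshold, FLJ27354 and GTSE1-AS1 stood just inside at 1.0001 CPM, and RP9P at 0.99963 CPM and AC017083.4 at 0.9991 CPM stood just outside. P is the unadjusted value, and a gene was called where the Benjamini-Hochberg value over all 13984 genes was under 0.05.

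TLR9 sits in the endosome of B cells, where it binds unmethylated CpG DNA and recruits the adaptor MYD88. The signal passes through IRAK kinases and TRAF6 to the IkB kinase complex, which frees NF-kB dimers from their IkB inhibitors. NF-kB then raises its own inhibitors and feedback enzymes together with survival genes, cytokines and costimulatory molecules. Among these are NFKBIZ, which encodes the nuclear IkB protein IkBz, a cofactor of NF-kB at secondary response genes, and ZC3H12A, which encodes the endoribonuclease Regnase-1 (MCPIP1) that degrades inflammatory mRNAs.

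Total counts ran from 20382943 to 67308932 per library. A pair of libraries stood apart by their mitochondrially encoded transcripts, HG3 replicate 2 without CpG (20.2% of its counts) and MEC2 replicate 2 with CpG (19.7%), while the remaining 16 had 2.82% to 9.28%, so results are also given without both of these pairs. PCL12 replicates 2 and 3 stood apart from replicate 1 over 45 genes expressed in MEC2 and chosen because PCL12 replicate 1 nearly lacked them: the median level relative to MEC2 was 29% to 31.3% in those replicates, 2.26% to 2.36% in replicate 1, by which the genes were selected, and 6.61% to 14.2% in HG3. Where those transcripts came from was not tested, and the leading results are also given without PCL12 pairs 2 and 3. The B-cell markers summed to 2200 to 4700 CPM in every library, although CD5 was at a mean of 48 CPM in stimulated HG3 and 0.146 CPM in stimulated MEC2. The 12 T and NK cell markers summed to 41.5 to 136 CPM, of which TRAC made up the most and CD3D was at or near 0, the 10 myeloid markers to 1.48 to 12.6 CPM, and the 11 stromal and epithelial markers to 18.1 to 111 CPM.

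No gene was called in the contrast in either direction with edgeR, so 0 genes (0%) had a higher and 0 (0%) a lower CpG effect in HG3, and the smallest adjusted p was 0.264, for ZNF831. At an unadjusted P under 0.05 there were 208 genes (1.49% of those tested) with a positive and 245 (1.75%) with a negative contrast, 453 (3.24%) in all, where 5% are awaited with no difference at all. limma-voom called 0 genes, with 365 at P under 0.05. DESeq2 called 3 genes with a positive contrast, ZNF831, PLD4 and BANK1, and 4 with a negative one, NFKBIZ, PCSK6, ZC3H12A and GSTM1, with 585 at P under 0.05. The component comparisons of the same fit, in which HG3, MEC2 and PCL12 each serve as a shared arm, called 0 genes as well: P was under 0.05 for 494 genes (3.53%) between HG3 and MEC2, 295 (2.11%) between HG3 and PCL12 and 145 (1.04%) between MEC2 and PCL12.

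The clearest named values were those of NFKBIZ (NFKBIZ, chr3:101827991-101861022, plus strand, GRCh38, GENCODE release 44, a protein-coding gene). Its level, as CPM after TMM scaling, was 126, 104 and 219 in unstimulated HG3 replicates 1 to 3 and 207, 209 and 288 after CpG. In MEC2 it was 35.4, 25 and 24.4 CPM before and 143, 154 and 88.3 CPM after CpG, and in PCL12 38.9, 61.7 and 35.7 CPM before and 175, 175 and 96.5 CPM after. Every unstimulated HG3 library stood above every unstimulated library of the other lines, and so did every stimulated HG3 library above the stimulated ones, while on the log2 scale the step from one to the other was smaller in each HG3 pair than in any pair of the other lines. The fitted CpG effect on NFKBIZ was 0.71 ± 0.20 (SE, log2, n = 3 pairs, edgeR adjusted p = 0.921) in HG3, 2.16 ± 0.21 (adjusted p = 0.00167) in MEC2 and 1.70 ± 0.20 (adjusted p = 0.0161) in PCL12, so NFKBIZ rose in MEC2 and PCL12. The contrast was -1.22 ± 0.24 (SE), with an edgeR adjusted p of 0.412 over all genes, and the DESeq2 adjusted p was 0.0205. Without PCL12 pairs 2 and 3 it was -1.46, and without HG3 and MEC2 pairs 2 it was -1.27 (edgeR adjusted p = 0.201). In bulk RNA a smaller rise in every cell and a rise in fewer cells cannot be told apart.

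ZC3H12A (chr1:37474580-37484377, plus strand, GRCh38, protein-coding) showed the same order of effects. It stood at 61.4, 90.7 and 102 CPM in unstimulated HG3 and at 120, 116 and 146 CPM after CpG. In MEC2 the levels were 59.6, 50.3 and 35.5 CPM before and 208, 207 and 91.3 CPM after CpG, and in PCL12 44.6, 62.3 and 33.2 CPM before and 139, 140 and 96.9 CPM after. The stimulated levels of the 3 lines overlapped, and the unstimulated ones overlapped as well, since HG3 replicate 1 lay below PCL12 replicate 2. The CpG effect on ZC3H12A was 0.61 ± 0.18 (SE, log2) in HG3, 1.74 ± 0.18 (adjusted p = 0.00246) in MEC2 and 1.45 ± 0.18 (adjusted p = 0.0161) in PCL12, and the contrast was -0.99 ± 0.22 (edgeR adjusted p = 0.506, DESeq2 adjusted p = 0.0451), or -1.08 for ZC3H12A without PCL12 pairs 2 and 3. Without HG3 and MEC2 pairs 2 the contrast of ZC3H12A was -0.80 (edgeR adjusted p = 0.445). NFKBIZ and ZC3H12A were the only genes called with a higher level after CpG in PCL12, where 2 genes (0.0143%) were called, and they were called in MEC2 with CXCL8 and OXTR, 4 genes (0.0286%). In HG3 0 genes (0%) were called with a higher level after CpG by edgeR, and 212 had P under 0.05 in that direction.

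The 9 replicate pairs, taken singly, separated HG3 from the other lines for both genes. The log2 ratio of stimulated to unstimulated NFKBIZ was 0.72, 1.01 and 0.40 in HG3, while it was 2.01, 2.62 and 1.85 in MEC2 and 2.17, 1.5 and 1.44 in PCL12. For ZC3H12A HG3 gave ratios of 0.96, 0.36 and 0.51, compared with 1.80, 2.04 and 1.36 in MEC2 and 1.64, 1.17 and 1.54 in PCL12. All 3 HG3 ratios lay below the 6 others for either gene, as they did for 140 of all genes tested (1%), while for 131 (0.937%) they lay above. Both genes were taken up because earlier results of these libraries showed this pattern, so the ratios are a description and carry no test.

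**Figure D1:**
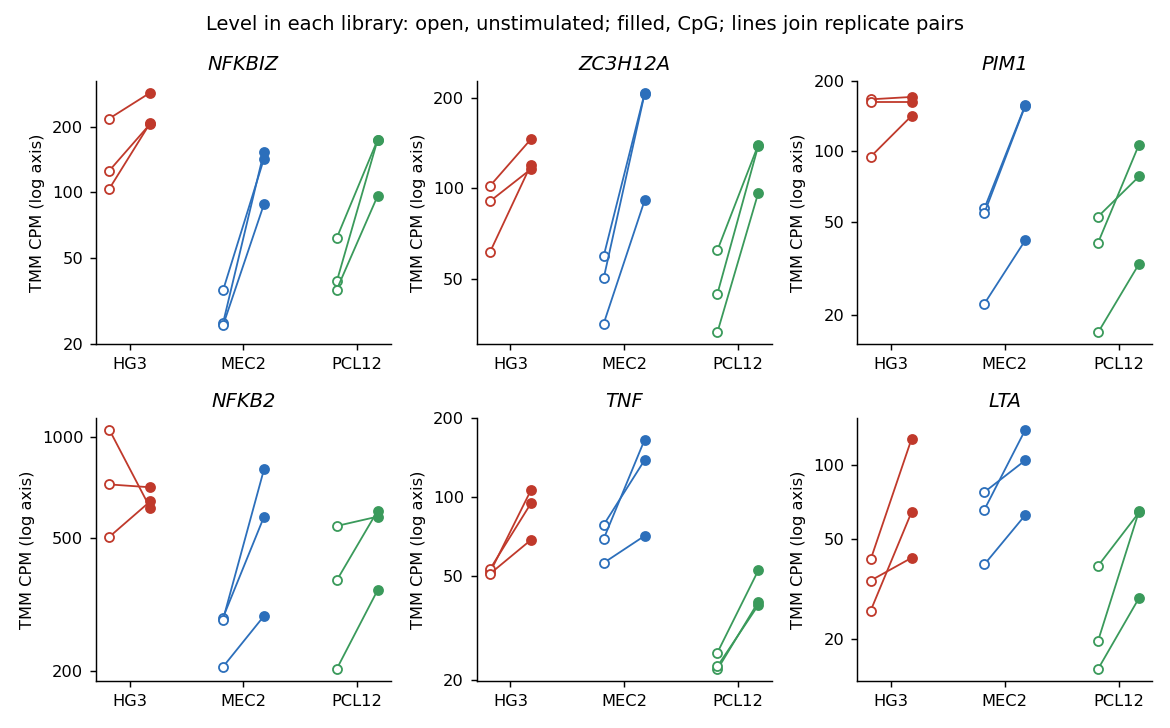
Level (TMM-scaled CPM, log axis) of NFKBIZ, ZC3H12A, PIM1, NFKB2, TNF and LTA in each of the 18 libraries, by cell line. Open circles are unstimulated and filled circles CpG-stimulated libraries, and each line joins a replicate pair. NFKBIZ in HG3 starts at 104 to 219 CPM, above all unstimulated MEC2 and PCL12 libraries at 24.4 to 61.7 CPM, and climbs less steeply, whereas the slopes for TNF and LTA overlap between the lines.

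Promoter sequence is shown for NFKBIZ and some members of the list described next, because that list collects targets of NF-kB. RefSeq promoter windows (GRCh38.p14) reaching from 250 bases before to 50 after the start site were searched on both strands for the kappa-B consensus, the decamer bound by NF-kB dimers. The 250 bases before the start of NFKBIZ are given whole, and for EBI3 and MAP3K8, which had negative contrasts, and NFKB1, which had a positive one, the match is given with its flanks. Capitals mark the consensus match, which lies on the plus strand except for MAP3K8, where it lies on the minus strand, and all sequences are written 5′ to 3′ on the plus strand at chr3:101827740-101827989, chr19:4229284-4229343, chr10:30433967-30434020 and chr4:102501285-102501344.
NFKBIZ: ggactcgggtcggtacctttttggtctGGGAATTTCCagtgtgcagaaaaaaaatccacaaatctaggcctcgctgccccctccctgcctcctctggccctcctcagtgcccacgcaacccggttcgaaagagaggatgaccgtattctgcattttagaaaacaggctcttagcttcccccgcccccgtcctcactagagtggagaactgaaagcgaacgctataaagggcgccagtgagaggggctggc
EBI3: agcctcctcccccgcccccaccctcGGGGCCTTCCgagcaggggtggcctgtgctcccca
MAP3K8: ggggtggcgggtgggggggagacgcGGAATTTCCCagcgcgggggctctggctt
NFKB1: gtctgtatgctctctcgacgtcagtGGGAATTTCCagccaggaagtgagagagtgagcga
The match began 223 bases before the start site in NFKBIZ, 214 in EBI3, 29 in MAP3K8 and 49 in NFKB1, and the decamer was the same in NFKBIZ and NFKB1. Of the NF-kB target list, 45 of 55 tested genes had a promoter in the table and 15 of these (33.3%) held a match, against 2958 of all 27305 promoters (10.8%) and 1268 of the 9695 found for genes tested (13.1%). Among the list members with a negative contrast at P under 0.05 a match was found in 4 of 17 (23.5%), and among the other members in 11 of 28 (39.3%). The ZC3H12A window held no match to these letters. A match is a description of the letters and was not tested as a binding site.

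The list of NF-kB targets held 60 genes, of which 55 passed the filter on low values and IL6, IL10, IL1B, PTGS2 and MMP9 did not. The contrast was negative for 43 of the 55 and positive for 12, with a median of -0.43, while the median over all genes tested was 0.03. No member was called in the main edgeR fit. Its adjusted p was 0.412 for NFKBIZ, 0.506 for ZC3H12A, 0.711 for PIM1, 0.762 for EBI3, 0.978 for MIR155HG and at least as high for the other 50 members. For single members P is therefore mostly given below only as under or over 0.05. DESeq2 called NFKBIZ and ZC3H12A. With at least 10 counts as the filter, and with no filter, edgeR called NFKBIZ and MIR155HG. In the main edgeR fit 21 of 55 had a negative contrast at P under 0.05, where 1.75% of all genes did, and 0 had a positive one. The list was chosen with earlier results of these data known, so its counts are a description and carry no test. The median CpG effect of the 55 genes was 0.16 in HG3, 0.72 in MEC2 and 0.41 in PCL12 on the log2 scale, and the effect was above 0 for 39, 49 and 51 of them. All 3 HG3 ratios lay below the 6 others for 9 members and above them for 0, where 1% and 0.937% of all genes tested did so. Without HG3 and MEC2 replicate pairs 2 the contrast was negative for 49 members, 24 of them at P under 0.05 (2.18% of all genes), and the median was -0.37. Without PCL12 pairs 2 and 3 it was negative for 46, of which 16 had P under 0.05 (2.02% of all genes), CCL4 was positive at that threshold with 0.94, and the median was -0.43. Members at P under 0.05 on the negative side fell to 12 without HG3 replicate 3, where 2.52% of all genes were, to 11 against PCL12 alone (1.28% of all genes), to 10 with library totals (1.19%) and to 5 without the replicate block (1.01%).

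**Figure D2:**
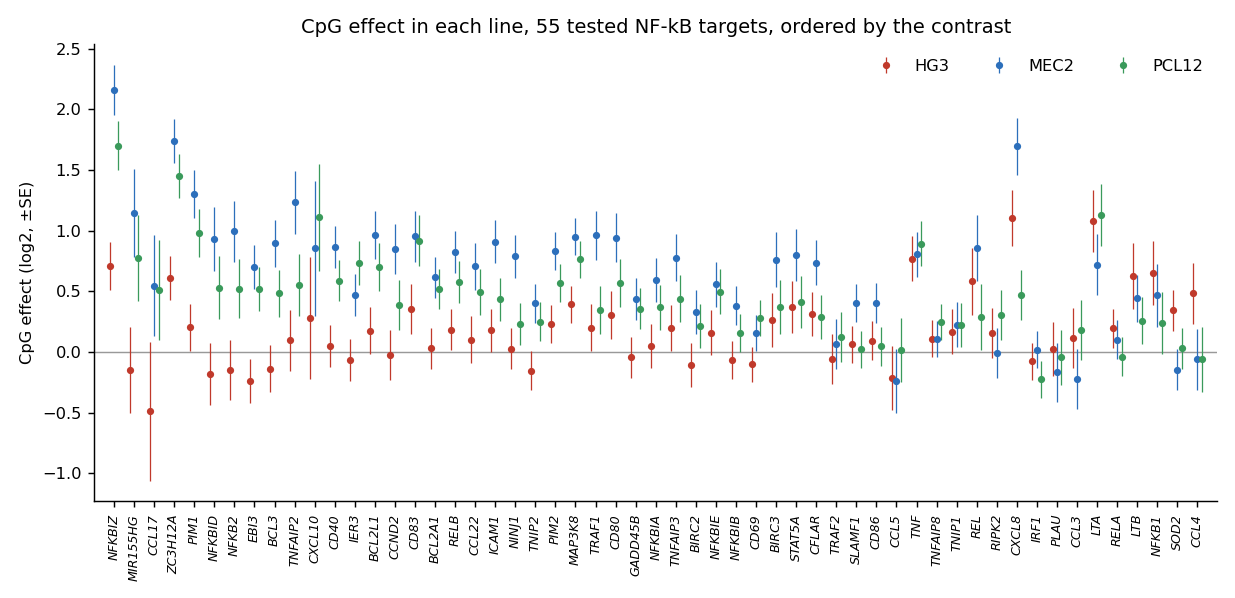
CpG effect (log2, points; bars, ± SE) in HG3, MEC2 and PCL12 for the 55 tested NF-kB targets, ordered from the most negative contrast at the left. HG3 points lie lowest over most of the left part of the plot, with NFKBIZ at 0.71 against 2.16 in MEC2 and 1.70 in PCL12, and the lines cannot be separated at TNF, where the effects are 0.77, 0.81 and 0.89.

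NFKBID, which encodes the nuclear IkB protein IkBNS, gave log2 ratios of 0.05, -0.43 and -0.18 in HG3, whereas MEC2 gave 0.57, 1.93 and 0.31 and PCL12 gave 0.64, 0.14 and 0.81, with no overlap between HG3 and the rest. Its contrast was -0.92 ± 0.31 (SE, edgeR adjusted p = 0.978), and -0.56 without HG3 and MEC2 pairs 2. The genes named from here to the end of the list's description, other than MIR155HG, CCL17 and PIM1, were chosen after their values were seen. BCL3, the nuclear IkB protein that partners the p50 and p52 subunits, had HG3 ratios of 0.26, -0.58 and -0.09, against 0.52 to 1.27 in MEC2 and 0.22 to 0.66 in PCL12, and a contrast of -0.83 ± 0.24 (P under 0.05). The classical cytoplasmic inhibitor NFKBIA had a contrast of -0.43 ± 0.23 (P over 0.05), NFKBIE one of -0.37 ± 0.23 (P over 0.05) and NFKBIB one of -0.34 ± 0.19 (P over 0.05; -0.21 without HG3 replicate 2), none of which passed even the unadjusted threshold.

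NFKB2, the precursor of p52, showed how far a single library could move a value. Its levels in HG3 were 503, 1050 and 721 CPM before and 642, 613 and 707 CPM after CpG, so replicate 2, the library with the high mitochondrial share, stood at the top of the unstimulated cultures. MEC2 went from 289, 285 and 206 CPM to 577, 799 and 292 CPM, and PCL12 from 373, 542 and 203 CPM to 602, 578 and 349 CPM. The contrast of NFKB2 was -0.90 ± 0.30 (P under 0.05), -0.61 (P over 0.05) without HG3 replicate 2, and -0.48 (P under 0.05) without HG3 and MEC2 pairs 2. RELB, the dimer partner of p52, had a contrast of -0.52 ± 0.21 (P under 0.05), with effects of 0.18, 0.83 and 0.58 in HG3, MEC2 and PCL12. NFKB1, the precursor of p50, differed from these, with a contrast of 0.30 ± 0.32 (P over 0.05) that became -0.20 without HG3 replicate 2.

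Of the feedback regulators, TNFAIP3 encodes the deubiquitinase A20, and its contrast of -0.41 ± 0.24 (P over 0.05) came from effects of 0.20 in HG3, 0.78 in MEC2 and 0.44 in PCL12. TNIP2, an A20-binding protein, had -0.48 ± 0.20 (P under 0.05), and TNFAIP2 -0.80 ± 0.31 (P under 0.05). For TNFAIP2 the value was -1.14 (P under 0.05) against MEC2 alone and -0.46 (P over 0.05) against PCL12 alone. Without HG3 replicate 3 it was -0.60 (P over 0.05). MAP3K8, the kinase TPL2 that links NF-kB to ERK signalling, gave HG3 ratios of 0.62, 0.30 and 0.25, against 0.98, 0.98 and 0.89 in MEC2 and 1.02, 0.58 and 0.69 for PCL12, with a contrast of -0.47 ± 0.18 (P under 0.05). In PCL12 replicate 2, 0.58 was below the highest HG3 ratio, so the groups overlapped for MAP3K8. BIRC3, the ubiquitin ligase cIAP2, showed -0.30 ± 0.28 (P over 0.05), or -0.11 without MEC2 replicate 2 and -0.10 against PCL12 alone.

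PIM1, a serine/threonine kinase, was at 94.9, 167 and 163 CPM in unstimulated HG3 and at 142, 171 and 163 CPM after CpG. It went from 57, 54.5 and 22.3 CPM to 158, 157 and 41.7 CPM in MEC2 and from 40.7, 52.6 and 16.8 CPM to 107, 78.1 and 33 CPM in PCL12. Unstimulated HG3 cells thus held more PIM1 RNA than any unstimulated culture of the other lines, and the HG3 ratio of replicate 1, 0.58, was just above that of PCL12 replicate 2, 0.57. The effect on PIM1 was 0.20 ± 0.19 in HG3, 1.30 ± 0.20 (adjusted p = 0.0511) in MEC2 and 0.98 ± 0.20 in PCL12, and the contrast was -0.94 ± 0.24 (edgeR adjusted p = 0.711). For the related kinase PIM2 the contrast was -0.47 ± 0.19 (P under 0.05). The antiapoptotic genes BCL2L1, which encodes BCL-XL, and BCL2A1, which encodes BFL-1, had contrasts of -0.66 ± 0.24 (P under 0.05) and -0.54 ± 0.20 (P under 0.05), the stress-induced IER3 had -0.67 ± 0.21 (P under 0.05) and the cyclin gene CCND2 had -0.64 ± 0.25 (P under 0.05).

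MIR155HG, the host transcript of miR-155, had the second most negative contrast of the list, -1.11 ± 0.44 (P under 0.05). It was not called in the main fit, but edgeR called it with at least 10 counts as the filter (adjusted p = 0.0311) and with no filter (adjusted p = 0.0318). Its levels were 206, 546 and 308 CPM before and 195, 310 and 421 CPM after CpG in HG3, 191, 136 and 513 CPM before and 374, 649 and 605 CPM after in MEC2, and 152, 338 and 280 CPM before and 411, 616 and 284 CPM after in PCL12. The replicates of each line were far apart and the groups overlapped. The value was -0.51 (P over 0.05) for MIR155HG without HG3 and MEC2 pairs 2 and -0.79 (P over 0.05) without HG3 replicate 2 alone, and -1.44 (P under 0.05) without PCL12 pairs 2 and 3.

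CD40, the receptor for T-cell help, had a contrast of -0.68 ± 0.21 (P under 0.05), from effects of 0.05 in HG3, 0.87 in MEC2 and 0.59 in PCL12. The activation marker CD83 gave -0.58 ± 0.25 (P under 0.05) and the adhesion molecule ICAM1 -0.49 ± 0.22 (P under 0.05), while the CD28 ligand CD80 gave -0.45 ± 0.24 (P over 0.05). With each pair left out in turn, the largest edgeR P was 0.161 for CD83 and 0.132 for ICAM1. The contrast of ICAM1 was -0.73 against MEC2 alone and -0.26 against PCL12 alone. CD83 was at 373, 349 and 787 CPM in unstimulated HG3 and at 28.8 to 170 CPM in the unstimulated cultures of the other lines.

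EBI3, the shared chain of IL-27 and IL-35, had HG3 ratios of 0.08, -0.75 and -0.06, which lay below the range of 0.38 to 0.87 in the other lines, and a contrast of -0.85 ± 0.22 (edgeR adjusted p = 0.762), or -0.61 (P under 0.05) without HG3 replicate 2. CCL17, a ligand of CCR4, had -1.02 ± 0.64 (P over 0.05) on levels of 0.0511 to 0.805 CPM in HG3 and 2.45 to 14.1 CPM in the other lines, or -0.42 (P over 0.05) without HG3 replicate 2 and -1.65 (P under 0.05) without HG3 replicate 3, and CCL22, the other CCR4 ligand, had -0.50 ± 0.24 (P over 0.05). The chemokine gene CCL4 had the most positive contrast of the 55 members, 0.54 ± 0.31 (P over 0.05), with effects of 0.48 in HG3 and -0.06 in both other lines, followed by SOD2, the mitochondrial superoxide dismutase gene, with 0.40 ± 0.21 (P over 0.05). Without HG3 and MEC2 pairs 2 they had 0.27 and 0.18.

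TNF was at 51.5, 53 and 50.9 CPM in unstimulated HG3 and 106, 94.4 and 68.5 CPM after CpG, 78.2, 69.2 and 56 CPM and 138, 165 and 71 CPM in MEC2, and 22, 25.5 and 22.6 CPM and 39.8, 52.5 and 38.7 CPM in PCL12. The effects on TNF were 0.77 ± 0.19, 0.81 ± 0.19 and 0.89 ± 0.19 in HG3, MEC2 and PCL12, with a contrast of -0.08 ± 0.23 (P over 0.05). For LTA the effects were 1.08 ± 0.26, 0.72 ± 0.25 and 1.13 ± 0.26 and the contrast 0.16 ± 0.31 (P over 0.05), which ran from -0.11 without HG3 replicate 1 to 0.55 without HG3 replicate 3 and was 0.36 against MEC2 alone. LTA encodes the related cytokine lymphotoxin alpha. Each HG3 pair was higher after CpG for both genes, as was each pair of the other lines, although neither gene was called in a line. CXCL8, the neutrophil chemokine IL-8, rose in MEC2 by 1.70 ± 0.24 (adjusted p = 0.025), with 1.10 ± 0.23 in HG3 (adjusted p = 0.433) and 0.47 ± 0.21 in PCL12, and had a contrast of 0.02 ± 0.27 (P over 0.05), with values on opposite sides of 0 for each other line, -0.58 against MEC2 alone and 0.63 against PCL12 alone (both P over 0.05). At these standard errors the absence of a call does not show equal effects.

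The starting levels differed between lines, and since the same unstimulated libraries enter the contrast, level and contrast are not independent measures. Of the 55 NF-kB targets, 15 stood higher in all 3 unstimulated HG3 libraries than in the 6 other unstimulated libraries and 2 stood lower in all 3, against 1482 (10.6%) and 1456 (10.4%) of all genes tested. After CpG, 10 of the 55 stood higher in all 3 HG3 libraries than in the other stimulated ones, against 1732 genes (12.4%). How far the unstimulated level takes part in the contrast was not tested.

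IL6 and TLR9 lay under the mean of 1 CPM, and their counts are given without a contrast. IL6 was counted 11, 0 and 4 times in the unstimulated and 22, 5 and 7 times in the stimulated HG3 libraries, 0 times in all unstimulated MEC2 and PCL12 libraries, 4, 6 and 0 times in stimulated MEC2 and 22, 1 and 3 times in stimulated PCL12. Transcripts of TLR9 itself were counted 2, 0 and 0 times before and 0, 0 and 5 times after CpG in HG3, 0, 0 and 0 times before and 4, 6 and 0 times after in MEC2, and 0, 0 and 2 times before and 10, 0 and 8 times after in PCL12. Up to 3 counts can lie behind a count of 0, equal to 0.0446 to 0.147 CPM in these libraries, for counting error alone, and no difference between lines is read from either gene. Of the 31 genes of the TLR9 pathway list 28 were tested, 14 with a positive and 14 with a negative contrast and 0 at P under 0.05. The median was 0.02, IRF7 had the most negative value at -0.51 ± 0.26 (P over 0.05), which became -0.22 without HG3 replicate 2, and the adaptor MYD88, chosen after its value was seen, had -0.15 ± 0.19 (P over 0.05), or -0.026 without HG3 replicate 3.

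At P under 0.05, 1.75% of all genes tested were negative and 1.49% positive, shares at which lists of 19 to 37 genes would hold under 1 such member on a side. SPIB, an Ets factor of B cells, was the single member at P under 0.05 among 19 tested B-cell and plasma cell factors, with a contrast of -0.73 ± 0.20 (P under 0.05) from effects of -0.17, 0.66 and 0.46. Among 23 tested TNF receptor superfamily and TRAF genes 2 had a negative contrast at P under 0.05, TNFRSF18, which encodes GITR, with -1.15 ± 0.40 (P under 0.05) and TRAF4 with -0.67 ± 0.26 (P under 0.05), and 1 had a positive one, TNFRSF21, which encodes death receptor 6, with 1.31 ± 0.49 (P under 0.05) on levels of at most 3.85 CPM outside HG3. Without HG3 and MEC2 pairs 2 these values were -0.61 for TNFRSF18, -0.44 for TRAF4 and 0.81 for TNFRSF21, each with P over 0.05. Of 26 tested cytokine receptor and STAT feedback genes, with a median of -0.06, 1 was negative and 1 positive at P under 0.05: IL2RA, the alpha chain of the IL-2 receptor, had -0.70 ± 0.28, and IL2RB, its beta chain, had 0.75 ± 0.34, or 0.26 (P over 0.05) without HG3 replicate 2. For IL2RA the value was -1.23 against MEC2 alone, -0.16 (P over 0.05) against PCL12 alone and -0.42 (P over 0.05) without HG3 replicate 3. The median of the TNF receptor and TRAF list was -0.10.

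Of 37 tested ERK and early response genes 3 had a negative and 1 a positive contrast at P under 0.05, and 20 of the 37 were positive. CCND1, which encodes cyclin D1, had -1.45 ± 0.45 (P under 0.05), where unstimulated HG3 stood at 4.65, 23.6 and 7.79 CPM, highest in the replicate with the high mitochondrial share, and stimulated HG3 at 5.41, 4.36 and 4.51 CPM. Without HG3 replicate 2 the contrast of CCND1 was -0.75 (P under 0.05). KLF2, a quiescence-associated factor, had 0.82 ± 0.31 (P under 0.05), from effects of -0.11 in HG3, -0.71 in MEC2 and -1.15 in PCL12. Without HG3 replicate 2 the contrast of KLF2 was 0.70 (P over 0.05). Interferon-stimulated genes were at a median of 0.05 with 1 of 36 members at P under 0.05 on either side. On the positive side CMPK2 had 5.14 ± 1.40 (P under 0.05) on 0, 0 and 0 counts in unstimulated and 1, 7 and 4 counts in stimulated HG3, so this value depends on the prior count.

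**Figure D3:**
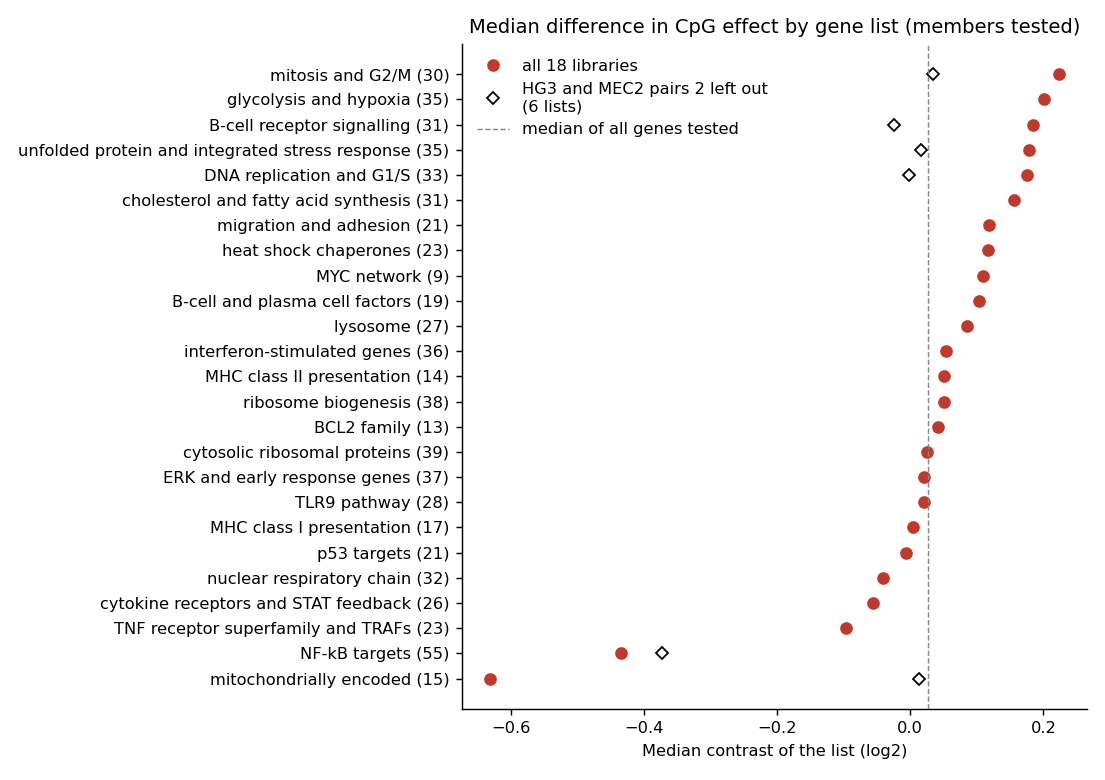
Median contrast (log2) over the tested members of each gene list, with the number tested in brackets, for all 18 libraries (filled) and, for 6 lists, without replicate pairs 2 of HG3 and MEC2 (open diamonds). The dashed line is the median of all genes tested, 0.03. NF-kB targets stay at -0.37 without those pairs, whereas the other 5 lists move to within 0.03 of 0 or, for mitosis and G2/M genes, to 0.03.

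Genes of the cell cycle lists had mostly positive contrasts that rested on the same 2 pairs. Among 30 tested mitosis and G2/M genes 27 were positive, with a median contrast of 0.22 and median CpG effects of 0.08 in HG3, -0.28 in MEC2 and -0.12 in PCL12, but 1 gene, the spindle gene DLGAP5 with 0.53 ± 0.24, had P under 0.05, and it had 0.25 (P over 0.05) without HG3 replicate 2. Without HG3 and MEC2 pairs 2 the median was 0.03 and 19 of 30 were positive. Of 33 DNA replication and G1/S genes 27 were positive, with a median of 0.18 that became -0.0017 without those pairs. The origin recognition gene ORC1 had 0.66 ± 0.27 (P under 0.05), and in unstimulated HG3 it was lowest in replicate 2, at 9.43 CPM against 20.3 and 15.1 CPM, and the contrast of ORC1 was 0.34 (P over 0.05) without that replicate.

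All 15 mitochondrially encoded genes had negative contrasts, with a median of -0.63, and 0 had P under 0.05 with edgeR, 12 with at least 10 counts as the filter (1.64% of all genes on that side) and 13 with no filter (1.28%). The median became 0.01 without pairs 2 of HG3 and MEC2, the pairs that hold the libraries with 20.2% and 19.7% mitochondrial counts. Of 35 tested genes of the unfolded protein and integrated stress response 29 were positive, with a median of 0.18 and 0.02 without those pairs. B-cell receptor signalling genes went from 0.18 to -0.02.

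The remaining lists of the plot lay nearer to the median of all genes or held few members that stood out. Glycolysis and hypoxia genes had a median of 0.20 with 24 of 35 positive, and the glucose transporter gene SLC2A3, with 0.75 ± 0.29 (P under 0.05), was the single member past that threshold. Cholesterol and fatty acid synthesis genes had a median of 0.16, migration and adhesion genes 0.12, heat shock chaperones 0.12, and MHC class II genes 0.05, with 0 members at P under 0.05 except 1 migration and adhesion gene. Cytosolic ribosomal proteins were at 0.03, BCL2 family genes at 0.04 and p53 targets at -0.01, each with 0 members at P under 0.05.

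Under a rule without adjustment, P under 0.01 and a contrast of at least 1 in size, 42 genes (0.3%) were positive and 61 (0.436%) negative. Most of them were scarcely expressed in HG3: the mean over the 6 HG3 libraries was under 1 CPM for 34 of the 42 (81%) and for 40 of the 61 (65.6%), against 7.68% of all genes tested, and their median count summed over those libraries was 38.5 and 100, against 4992.5. ZNF831, a zinc finger gene with the smallest P of all, was counted 0, 0 and 0 times in unstimulated and 6, 7 and 11 times in stimulated HG3, and 172 to 566 times in each library of the other lines. BANK1, a B-cell scaffold protein, was counted 9, 0 and 3 times before and 18, 21 and 12 times after CpG in HG3, and 622 to 1833 times elsewhere. For these genes the contrast compares a few reads in HG3 with far more in the other lines.

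The negative side held the mirror pattern. TIGIT, an inhibitory receptor, was counted 0, 7 and 7 times in unstimulated HG3 and 0 times in every stimulated HG3 library, and 47 to 1502 times in the other libraries. TMPRSS3, a transmembrane protease gene, was counted 0, 12 and 7 times before and 0, 0 and 0 times after CpG in HG3 and 1144 to 5127 times in MEC2, and in PCL12 it was at 24 and 1 counts in replicate 1 but 777 to 1204 in replicates 2 and 3. The fitted values of such genes were 6.49 for ZNF831, 2.47 for BANK1, -6.78 for TIGIT and -6.49 for TMPRSS3, and those against libraries at 0 are no measure of size. ZNF831, TIGIT and TMPRSS3 were chosen after their values were seen.

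**Figure D4:**
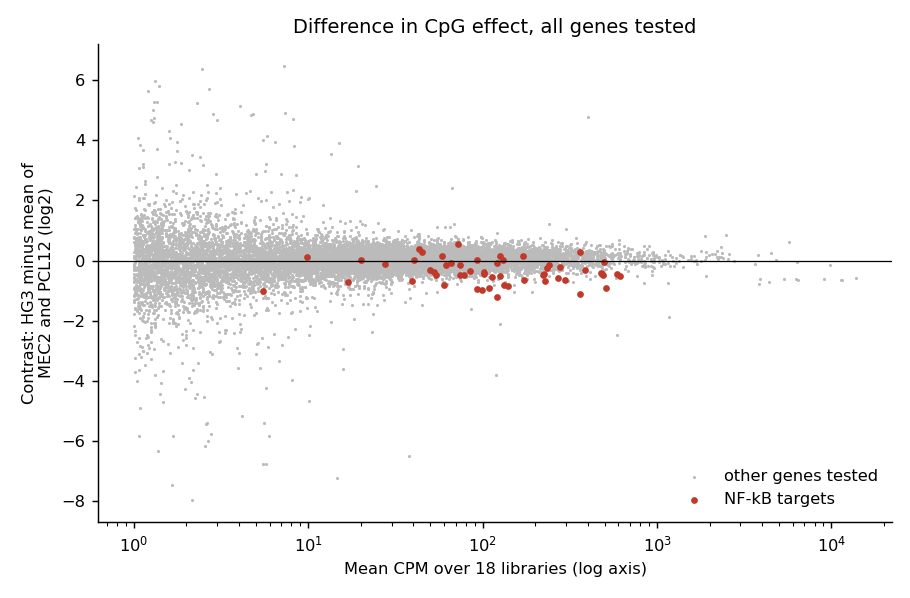
Contrast (log2, HG3 minus the mean of MEC2 and PCL12) against the mean CPM over the 18 libraries (log axis) for all 13984 genes tested (grey) and the 55 NF-kB targets (red). The cloud is widest at low CPM, where ZNF831 reaches 6.49, and 43 of the 55 NF-kB targets lie below 0, with NFKBIZ lowest at -1.22.

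Where a mean of at least 1 CPM in each line was required, a filter added after the data were seen, 12030 genes were left. With P under 0.01 and a contrast of at least 1 in size, 5 were positive and 17 negative, and NFKBIZ and ZC3H12A had the smallest P values. At P under 0.05, 1.12% were positive and 1.29% negative. The smallest edgeR adjusted p was 0.972, against 0.264 with the main filter, so no gene was called here either. Several further genes that passed this filter, chosen after their values were seen, had negative contrasts. NOD2, a sensor of bacterial peptidoglycan, was at 23.4, 20 and 26.2 CPM before and 19.1, 15.1 and 22.2 CPM after CpG in HG3, 12, 12.9 and 12.8 CPM before and 28.7, 38.2 and 19.4 CPM after in MEC2, and 21.6, 24.4 and 15.4 CPM before and 36.2, 28.4 and 22.1 CPM after in PCL12. Each HG3 pair was lower after CpG and each other pair higher, which held for 18 genes tested (0.129%), while the opposite held for 30 (0.215%). The contrast of NOD2 was -1.13 ± 0.25 (edgeR adjusted p = 0.506). BATF, an AP-1 factor of activated lymphocytes, had -1.05 ± 0.31 (P under 0.05), where unstimulated HG3 replicate 2 stood at 294 CPM against 66.2 and 131 CPM, and -0.78 (P under 0.05) without HG3 and MEC2 pairs 2.

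OXTR, the oxytocin receptor gene, rose in MEC2 by 1.80 ± 0.24 (edgeR adjusted p = 0.0239), with 0.27 ± 0.23 in HG3 and 0.84 ± 0.24 in PCL12, and had a contrast of -1.05 ± 0.29 (P under 0.05), or -1.17 without PCL12 pairs 2 and 3. In PCL12 it was at 2.1 and 4.46 CPM in replicate 1 and at 24.5 to 52 CPM in replicates 2 and 3, which stood apart as described, and the part of that difference in the PCL12 effect was not tested. On the positive side, also chosen after their values were seen, LBH, a transcriptional regulator gene, had 0.83 ± 0.24 (P under 0.05) and RHOH, a haematopoietic GTPase gene, 0.63 ± 0.21 (P under 0.05), and for RHOH the effects were -0.04 in HG3, -0.80 in MEC2 and -0.54 in PCL12.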

How the data were processed

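The deposited table held raw counts per gene symbol, which the authors made with Trimmomatic, STAR and featureCounts on hg38 after FastQC and MultiQC, versions not given in the sources used here. Per the labels, libraries were stranded QuantSeq, which reads transcript 3′ ends, while the study's methods name a stranded reverse protocol and another extraction kit. CPM was not divided by length, and levels were not compared between genes. All 18 columns were used.

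Counts were fitted in edgeR 4.0.16 (R 4.3.3) with TMM factors, 9 pair intercepts and a CpG coefficient per line (6 residual degrees of freedom), Benjamini-Hochberg over all genes. A replicate series held 1 stimulated and 1 unstimulated sample, per the series' design text. Deviations of same-numbered libraries correlated with r of 0.212 to 0.476 in HG3 and 0.495 to 0.608 in PCL12. In MEC2 r was 0.193, -0.0145 and 0.61, and stimulated replicates 1 and 2 correlated better with each other's control (0.447 and 0.392), so the pairing there rests on the design text. No replicate libraries were identical (chi-square per gene 20.5 to 545). SE is |log2| over the root of F. Log2 ratios of pairs used a prior count of 0.5. The code of the fit was run on simulated counts that held no libraries standing apart, which is not a test of the fit on these data.

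Members, lists and tests were chosen with earlier results of these data known. Named are, by rule, called genes, NFKBIZ, ZC3H12A, IL6, TLR9 and up to 4 further members per list with the largest contrasts. Any other gene is stated to be chosen after its values were seen. Lists were described by counts and medians, without a test. Alternatives were DESeq2 1.42.0, limma-voom (limma 3.58.1), other scalings, filters and lines, no block, and each pair or the doubted pairs left out. Promoters came from RefSeq (GRCh38.p14) and gene positions from GENCODE release 44.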

Additional observations from a re-analysis of the deposited data

Results flagged for a closer look

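Some named genes had log2 ratios on one side of 0 in all 3 HG3 pairs and on the opposite side in all 6 other pairs. This difference did not pass edgeR's adjusted threshold at the filter of 1 CPM with the replicate block. Some of the ratios were close to 0, with 0.01 for SLC2A3 in HG3 replicate 3 and -0.01 for DDIT4 in MEC2 replicate 3. Of all genes tested, 18 (0.129%) had HG3 below 0 and the others above, and 30 (0.215%) the reverse. Negative contrasts of this kind were -1.13 for NOD2 and -0.69 for CSF1. Positive ones were 6.49 for ZNF831 and 2.47 for BANK1, both scarcely counted in HG3 and both called by edgeR with the looser filters and by DESeq2, with ZNF831 also called without the block, 0.83 for LBH, 0.75 for the glucose transporter gene SLC2A3 and 0.47 for the stress-induced DDIT4. NOD2, CSF1, ZNF831, LBH and DDIT4 were chosen after their values were seen. Groups of 3 replicates are too small for an outlier test.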

How the results depend on the processing

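NFKBIZ kept its sign in 24 of 24 alternatives and ZC3H12A in 24 of 24. The adjusted p of NFKBIZ was 0.00529 to 1, under the threshold in 3 (DESeq2, at least 10 counts, no filter), and that of ZC3H12A 0.0451 to 1, under it in 1 (DESeq2). Other counts and signs changed as follows. Without the replicate block, that is without the pairing, 1 gene was called higher in HG3 (ZNF831), 1 between HG3 and MEC2 and 1 between HG3 and PCL12. DESeq2 called 3 higher and 4 lower, and 15 between HG3 and MEC2. With at least 10 counts as the filter the counts were 12 higher, 22 lower, 45 between HG3 and MEC2, 22 between HG3 and PCL12 and 4 between MEC2 and PCL12, and with no filter 11, 20, 40, 19 and 4. The nominal rule gave 42 and 61. Leaving out each pair in turn gave 0 to 0 higher, 0 to 1 lower (without HG3 replicate 3) and 0 to 1 between HG3 and MEC2. The cause was not tested.

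Near 0 the sign was unstable. NFKB1 was -0.26 without pairs 2 of HG3 and MEC2, and -0.20 to 0.66 with each pair left out in turn. LTA was -0.043 against PCL12 alone, -0.14 without PCL12 pairs 2 and 3, -0.040 without pairs 2, and -0.11 to 0.55 with each pair left out. TNF was 0.023 with library totals and -0.21 to 0.092 with each pair left out. CXCL8 was -0.29 without the block, -0.19 with limma-voom, -0.58 against MEC2 alone (0.63 against PCL12 alone), -0.15 without PCL12 pairs 2 and 3, -0.018 without pairs 2, and -0.16 to 0.22 with each pair left out. Without pairs 2, medians turned to -0.0017 (DNA replication), 0.0126 (mitochondrially encoded) and -0.024 (B-cell receptor signalling).

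For NF-kB targets the median ran from -0.54 against MEC2 alone to -0.26 against PCL12 alone, and members at P under 0.05 on the negative side from 5 without the block to 24. Library totals moved the median of all genes from 0.03 to 0.13 and left 10 such members. The median standard error of the contrast was 0.77 at 1 to 5 CPM and 0.23 from 100 CPM.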
